A study of Mus musculus with 5 samples.

Results

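The genes described here are 10 markers of macrophages and other myeloid cells: Cd68, Csf1r, Adgre1, Itgam, Itgax, Cd14, C1qa, C1qb, C1qc and Mrc1. They were taken by gene symbol from the merged gene table, which held 55573 genes, and all 10 were found. RNA was sequenced from 3 Th-Cre:MYC tumours and from the normal pancreas of 2 wild-type littermates, which carry neither Cre nor the MYC transgene as far as their labels state. In the tumour mice, Cre under the tyrosine hydroxylase promoter, which is used by catecholamine-producing cells, removes a stop cassette ahead of a MYC gene driven by the CAG promoter. The question the series states is how expression in the tumours differs from that in normal pancreas. The labels give no age, sex, treatment or batch. The sample descriptions begin with serial numbers that lie in separate ranges for tumour and normal pancreas, and no label says what they mean. Any difference in handling between the groups could not be told apart from tissue. The titles of tumours 1 and 2 share a number, and no label says whether these samples came from the same animal, so the p-values measure the spread between samples, which may in part be technical.

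Macrophages are phagocytes that live in every tissue, and in tumours they come both from tissue residents and from blood monocytes. Their survival depends on the CSF1 receptor, and their surface carries integrins, scavenger and lectin receptors and receptors for bacterial products. They are also the main source of C1q, the recognition part of the classical complement pathway. C1q is assembled from the products of C1qa, C1qb and C1qc, which lie next to each other in the genome. Itgam and Itgax encode CD11b and CD11c, the alpha chains of complement receptors 3 and 4, and are likewise neighbours. CD11b marks monocytes, macrophages and neutrophils, while CD11c marks dendritic cells and some tissue macrophages.

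The promoters of these neighbouring genes are shown because C1qb and C1qc kept nearly the same ratio to each other in every library, while Itgam and Itgax did not. On GRCm38, C1qa lies on chromosome 4 from 136895917 to 136898803, C1qc from 136889804 to 136893065 and C1qb from 136880129 to 136886187, each on the minus strand. Itgam lies on chromosome 7 from 128062640 to 128118491 and Itgax from 128129547 to 128150657, both on the plus strand. The sequences are from RefSeq (GRCm38.p6), run 5′ to 3′ on the gene's strand, and cover 250 bases before the start that RefSeq gives and 50 after it. For C1qc that start lies inside the gene as placed by GENCODE above. Capitals mark GAGGAA or, on the other strand, TTCCTC, a form of the purine-rich core bound by PU.1, the myeloid transcription factor encoded by Spi1. The 4 promoters printed were chosen after the values were seen.
C1qb: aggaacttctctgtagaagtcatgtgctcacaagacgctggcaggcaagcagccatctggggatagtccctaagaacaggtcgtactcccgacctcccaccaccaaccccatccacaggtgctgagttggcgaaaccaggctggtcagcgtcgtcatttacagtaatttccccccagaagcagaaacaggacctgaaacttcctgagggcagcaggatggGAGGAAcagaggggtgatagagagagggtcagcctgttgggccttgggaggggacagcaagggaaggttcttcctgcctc
C1qc: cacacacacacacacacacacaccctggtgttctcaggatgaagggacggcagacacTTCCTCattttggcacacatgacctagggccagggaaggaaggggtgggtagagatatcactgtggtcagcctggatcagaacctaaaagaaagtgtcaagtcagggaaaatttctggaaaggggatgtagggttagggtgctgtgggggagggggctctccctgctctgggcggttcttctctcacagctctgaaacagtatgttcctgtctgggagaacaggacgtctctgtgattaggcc
Itgam: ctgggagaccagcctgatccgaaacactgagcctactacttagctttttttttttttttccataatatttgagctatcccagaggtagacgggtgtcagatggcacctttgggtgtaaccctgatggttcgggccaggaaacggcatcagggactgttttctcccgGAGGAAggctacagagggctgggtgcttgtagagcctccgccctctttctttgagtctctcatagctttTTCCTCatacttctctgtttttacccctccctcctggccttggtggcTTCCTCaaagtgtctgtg
Itgax: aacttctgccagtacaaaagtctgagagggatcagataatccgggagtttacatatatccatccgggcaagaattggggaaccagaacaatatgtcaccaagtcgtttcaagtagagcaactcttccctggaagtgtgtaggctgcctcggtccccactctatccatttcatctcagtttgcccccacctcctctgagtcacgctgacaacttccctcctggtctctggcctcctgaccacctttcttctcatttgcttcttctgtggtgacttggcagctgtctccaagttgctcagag

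C1qb and C1qc each held 1 match, Itgam held 3 and Itgax held 0. Csf1r and Cd14 were left out of the search by chromosome, and C1qa and Adgre1 had no promoter in the set used. Of the 6 markers searched, 5 held the motif. For comparison, 28.3% of the 32851 promoters of this length held it, with no chromosome left out. A match is a run of letters and does not show binding, and the window of Itgax without a match shows only that these letters are not in it.

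The libraries held between 6611967 and 51669489 estimated counts in all, and the normal libraries were the deepest. Acinar enzyme genes took 82.8% and 82.1% of the normal counts and at most 0.560% of a tumour library. The misc_RNA class, which includes the signal recognition particle RNA, took 22.0% to 25.3% of the tumour counts and at most 0.00116% of the normal ones. A total count therefore means something different in each group. What set the misc_RNA shares was not tested, and a difference in handling could not be told apart from tissue. Levels are given here as CPM, counts per 1e+06 of the TMM-scaled library size, a scaling that assumes most genes do not differ. Neuroendocrine genes were higher in tumour for 10 of 10, and acinar genes lower for 36 of 38 tested. Both lists were chosen with earlier results of these data known, so these counts are no check of the labels.

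By TMM, most of the markers showed no detectable difference between tumour and normal pancreas, and Itgax stood out from the rest. Other scalings, given below, put more of the markers higher in tumour. Itgax had 3 counts in normal pancreas and rose by 4.70 on the log2 scale (SE 0.50, edgeR quasi-likelihood test, Benjamini-Hochberg adjusted p = 0.000364). It entered the test through its tumour counts alone, so it could pass only as higher. Cd14 fell by 1.16 (SE 0.42, edgeR adjusted p = 0.0476), a call that was lost under most other settings. Of the 10 markers, all of which were tested, 1 was higher, 1 was lower and 8 did not pass an adjusted p of 0.05. Over the 16810 genes tested, 67.0% passed, 39.2% as higher and 27.8% as lower, by the same TMM scaling. Counts of genes that passed in the lists below are to be read beside these shares. With so many genes called, the TMM assumption that most genes do not differ may not hold here. The median log2 fold change was -0.10 over the markers and 0.38 over all genes tested. In bulk tissue, fewer cells of a type and less RNA per cell cannot be told apart.

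**Figure D1:**
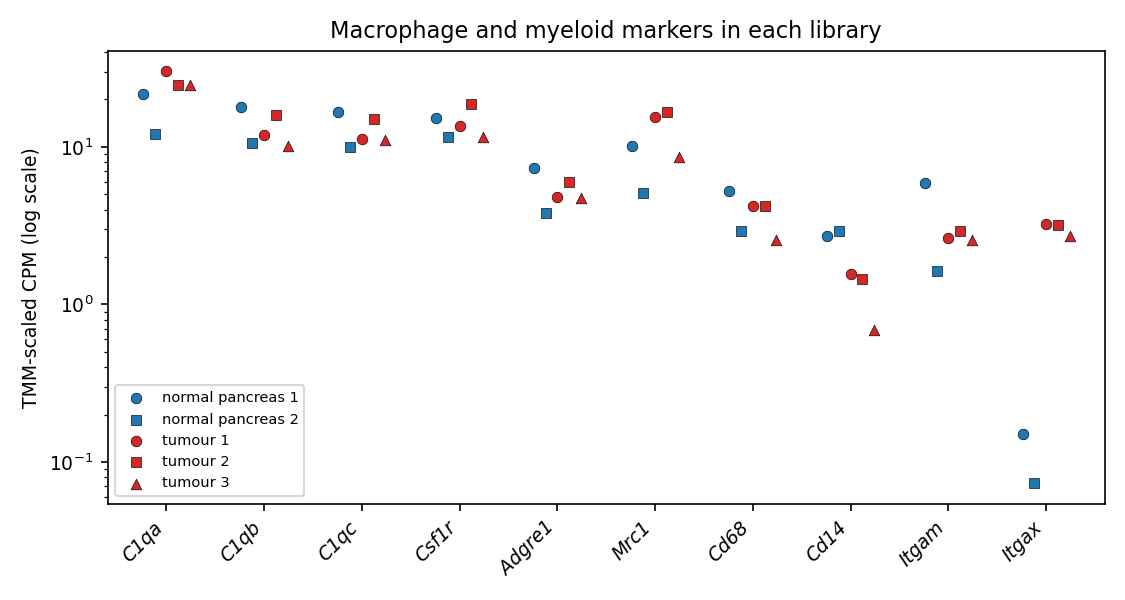
Level of each marker in each library as TMM-scaled CPM on a log axis, with normal pancreas in blue and tumour in red and 1 point per library. Itgax is separated by more than an order of magnitude, Cd14 is lower and C1qa higher in every tumour library, and the points of the other 7 markers overlap.

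The scaling set the direction for most markers. With total counts only, 10 of 10 markers passed as higher, beside 93.3% of all genes, and the median of all genes moved to 3.55 while that of the markers was 3.08. Scaled on protein-coding counts outside the acinar list, 8 of 10 passed as higher beside 68.1% of all genes, with medians of 1.12 for the markers and 1.61 for all genes. By limma on log2(TPM + 1), 8 of 10 passed as higher beside 63.4% of all genes, with medians of 1.03 for the markers and 0.62 for all genes. TMM, total counts and protein-coding counts shift every gene by about the same amount, so the markers' median stayed below that of all genes and their order was kept. By limma on log2(TPM + 1) the markers' median was above that of all genes, and Itgax, at 0.72, was below C1qa, at 1.98. Neither held by limma on log2(TPM + 0.1), where the medians were 1.36 for the markers and 1.40 for all genes. There Itgax, at 2.58, was above C1qa, at 2.15.

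**Figure D2:**
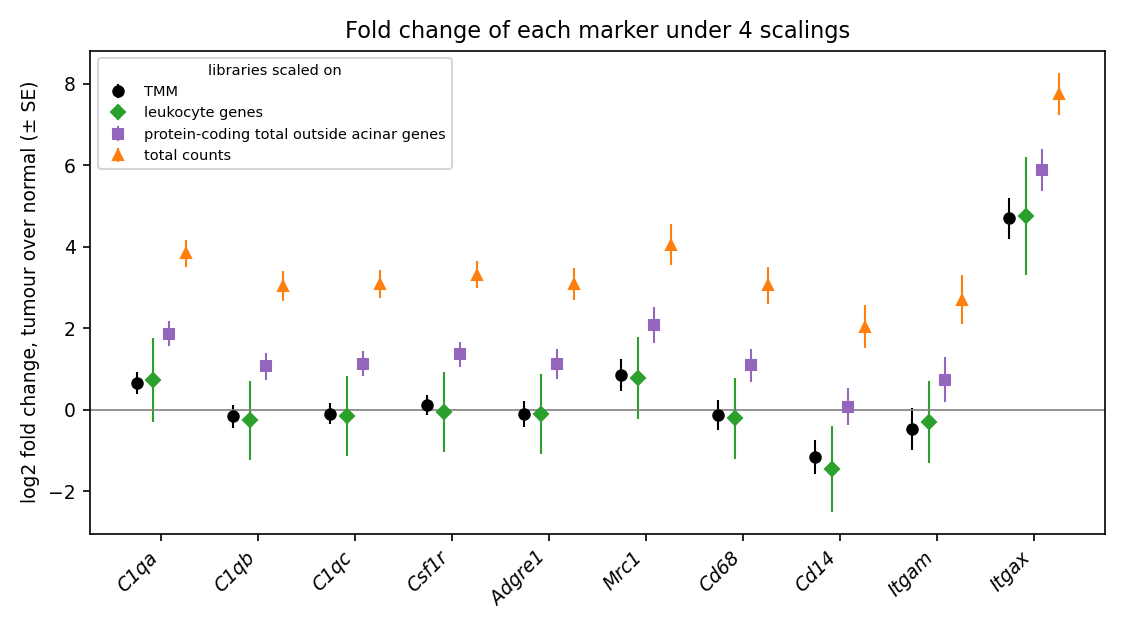
Log2 fold change of each marker, tumour over normal pancreas, with its standard error, under 4 scalings of the libraries. Total counts (orange) put all 10 markers above 0 and TMM (black) puts 4 above 0.

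A further scaling used 16 genes that most leukocytes express, so that it compares each marker with leukocyte RNA in the same library. On this scale Itgax rose by 4.76 (SE 1.45, edgeR adjusted p = 0.00896), and no other marker passed, beside 21.1% of all genes. At an unadjusted p under 0.05 the count was also 1. The Itgax call was lost without normal pancreas replicate 1 (4.71, adjusted p = 0.326), without normal pancreas replicate 2 (4.56, adjusted p = 0.185) and without tumour replicate 1 (4.49, adjusted p = 0.132). It was also lost when Ptprc alone served as reference (adjusted p = 0.191). Standard errors were near 1 for most markers on this scale, so moderate differences were not detectable. For Csf1r, for example, the value was -0.05 with an SE of 0.985.

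The receptor for the growth factor of the lineage, Csf1r, was at 15.35 and 11.6 CPM in the normal libraries and at 13.6, 18.6 and 11.6 CPM in the tumours. The groups overlapped, and the difference of 0.12 (SE 0.24) did not pass (edgeR adjusted p = 0.671). Exons of Csf1r share 873 bases with Hmgxb3 on the opposite strand. Hmgxb3 had 111 and 126 counts in normal pancreas and 670, 545 and 218 in the tumours, and whether the counting used strand is not given in the sources used here, so a part of the Csf1r counts may belong to it. The ligand gene Csf1 was at 5.82 and 5.67 CPM in the normal libraries and at 2.50, 4.99 and 3.05 CPM in the tumours (log2 -0.71, SE 0.34, edgeR adjusted p = 0.104). Csf1 passed as lower with tumours 1 and 2, whose titles share a number, summed (-0.75, adjusted p = 0.0235) and without tumour replicate 2 (-1.06, adjusted p = 0.0147), and was higher with total counts only. Il34, the other ligand, also missed the threshold (log2 0.92, SE 0.57, edgeR adjusted p = 0.188).

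Spi1, which encodes PU.1, was at 1.36 and 0.737 CPM in the normal libraries and at 1.12, 2.14 and 1.66 CPM in the tumours. Its groups overlapped, and its log2 difference of 0.64 (SE 0.49) did not pass (edgeR adjusted p = 0.281). Of 16 genes of CSF1 signalling and the myeloid lineage, 6 rose and 4 fell by TMM, and 14 rose and 1 fell with total counts only. Without normal pancreas replicate 2 the counts were 1 and 3, and without replicate 1 they were 4 and 3. The gene with the smallest p was Cebpa, a transcription factor of granulocytes and monocytes that other tissues also use, which fell by 4.28 (SE 0.16, edgeR adjusted p = 2.02e-05). Its direction was the same with total counts only.

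Adgre1 encodes F4/80, a surface protein used to define mouse macrophages, and lies on chromosome 17 from 57358691 to 57483527 on the plus strand (GRCm38). It was at 7.33 and 3.83 CPM in the normal libraries and at 4.84, 6.01 and 4.71 CPM in the tumours. All 3 tumours lay between the 2 normal libraries (log2 -0.10, SE 0.31, edgeR adjusted p = 0.785).

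Cd68 encodes a lysosomal glycoprotein of phagocytes, and lies on chromosome 11 from 69664213 to 69666153 on the minus strand. Its levels were 5.22 and 2.95 CPM in the normal libraries and 4.23, 4.24 and 2.56 CPM in the tumours, with overlapping groups (log2 -0.14, SE 0.36, edgeR adjusted p = 0.754). Of 10 lysosomal and endocytic genes that many cell types express, macrophages among them, 2 were higher and 6 lower by TMM, and 10 of 10 were higher with total counts only, as was Cd68. Lamp1, a membrane protein of lysosomes in most cells, fell by 1.64 (SE 0.17, edgeR adjusted p = 0.000361), though it was higher with total counts only. Lgmn, a lysosomal protease, rose by 2.47 (SE 0.29, edgeR adjusted p = 0.000542). The 6 lower calls became 4 when either normal library was left out, and the 2 higher calls became 1 without normal pancreas replicate 1.

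Mrc1 encodes the mannose receptor CD206, an endocytic lectin of tissue macrophages, and lies on chromosome 2 from 14229392 to 14332057 on the plus strand. It was at 10.1 and 5.08 CPM in the normal libraries and at 15.6, 16.6 and 8.59 CPM in the tumours. Tumours 1 and 2 were above both normal libraries and tumour 3 lay between them. The difference of 0.85 (SE 0.39) did not pass (edgeR adjusted p = 0.0903), but it passed without tumour replicate 3 (1.12, adjusted p = 0.0308). Stab1 and Stab2, scavenger receptors of sinusoidal endothelium, the first also of macrophages, were higher in every tumour. Stab1 rose by 2.08 (SE 0.15, edgeR adjusted p = 9.71e-05), and Stab2, with 0 counts in both normal libraries, was at least 27.0-fold higher if the normal group is set to a floor of 3 counts. Some endothelial cells also carry Mrc1. Of 10 endothelial markers 7 were higher and 1 lower, which became 4 and 1 without normal pancreas replicate 1 and 5 and 0 without replicate 2. Their part in the Mrc1 values was not tested.

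Cd14 encodes a co-receptor that hands bacterial lipopolysaccharide to TLR4. It had 36 and 40 counts in normal pancreas and 59, 47 and 10 in the tumours, or 2.72 and 2.95 CPM against 1.57, 1.46 and 0.69 CPM. Every tumour lay below both normal libraries, but the count in tumour 3 was small. The call was lost without normal pancreas replicate 1 (-1.22, adjusted p = 0.138), without replicate 2 (-1.09, adjusted p = 0.181), without tumour replicate 2 (-1.25, adjusted p = 0.0584) and without tumour replicate 3 (-0.87, adjusted p = 0.0803). It was lost by DESeq2 as well (adjusted p = 0.0653), and with total counts only Cd14 was higher by 2.04.

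Of the 11 genes of the receptor complex and adaptors of Cd14, 2 rose and 5 fell by TMM, with a median log2 of -0.92, and 11 of 11 were higher with total counts only. The lower calls became 2 when either normal library was left out, and the higher calls became 1 without normal pancreas replicate 2. Tlr4, the signalling receptor, was at 1.36 and 1.25 CPM in the normal libraries and at 3.48, 3.38 and 2.84 CPM in the tumours, and rose by 1.308 (SE 0.31, edgeR adjusted p = 0.00959). That call was lost with normal pancreas replicate 2 left out (adjusted p = 0.0576). Lbp, which brings lipopolysaccharide to CD14, rose by 2.57 (SE 0.28, edgeR adjusted p = 0.000405). Ly96, which encodes the TLR4 subunit MD-2, was at 1.51 and 1.55 CPM in the normal libraries and at 0.744, 0.898 and 0.554 CPM in the tumours, and missed the threshold (log2 -1.04, SE 0.41, edgeR adjusted p = 0.0599). Tirap, a cytoplasmic adaptor, fell by 1.91 (SE 0.26, edgeR adjusted p = 0.00096), though it was higher with total counts only. The adaptor gene Myd88 fell by 1.25 (SE 0.19, edgeR adjusted p = 0.00174). The receptor gene Tlr2, the kinase gene Irak4 and the adaptor gene Ticam1, picked after their values were seen, fell by 1.16 (adjusted p = 0.00995), 1.06 (adjusted p = 0.0187) and 0.93 (adjusted p = 0.0231). These 3 calls were lost when either normal library was left out, with adjusted p-values from 0.0528 to 0.118, and all 4 genes were higher with total counts only.

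Itgam and Itgax, whose products pair with the same beta chain, gave unlike results. Itgam had 78 and 22 counts in normal pancreas and 99, 95 and 37 in the tumours, or 5.90 and 1.62 CPM against 2.63, 2.94 and 2.56 CPM. Its 3 tumour values were close together and lay between normal values that differed 3.64-fold (log2 -0.47, SE 0.51, edgeR adjusted p = 0.443). With replicate 2 of normal pancreas left out, the lower of the normal values, Itgam passed as lower (-1.10, adjusted p = 0.0399), and without replicate 1 its sign was positive (0.74). Exons of Itgam share 3450 bases on the same strand with Gm49368, a gene model listed at 0 counts in every library.

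Itgax had 2 and 1 counts in normal pancreas and 122, 103 and 39 in the tumours. As CPM these were 0.151 and 0.074 against 3.24, 3.19 and 2.701, so on this scale the tumours were close in level despite their different depths. As TPM the tumours were further apart, at 0.98, 0.69 and 0.49. The ratio of pooled counts per scaled library size was 28.0, with a 95% exact binomial interval from 9.46 to 136.5 that covers counting error only. It ran from 20.7 without normal pancreas replicate 2 to 42.5 without replicate 1. With each library left out in turn, log2 values ran from 4.30 to 5.28 and edgeR adjusted p-values from 0.000739 to 0.00569. The fits with 1 normal library rest on 1 or 2 normal counts and assume that this library varies like the others.

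Within a library the ratio of Itgax to Itgam counts does not depend on the scaling. It was 0.0256 and 0.0455 in normal pancreas and 1.23, 1.08 and 1.05 in the tumours, a mean difference of 5.04 on the log2 scale. The 95% exact binomial interval reached at most 0.281 in a normal library and began at 0.655 or more in every tumour library. With 3 against 2 libraries, the two-sided exact permutation p was 0.2, the smallest this design allows, for this pair and for each of the 4 pairs computed, and 0.2 after adjustment. These pairs were chosen after their values were seen.

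The beta chain gene shared by both, Itgb2, was at 13.0 and 9.21 CPM in the normal libraries and at 3.64, 7.65 and 2.29 CPM in the tumours. Every tumour was below both normal libraries, at the edge of the threshold (log2 -1.27, SE 0.47, edgeR adjusted p = 0.0501). It passed as lower without tumour replicate 2 (-1.86, adjusted p = 0.00286), with tumours 1 and 2 summed (-1.40, adjusted p = 0.0124), by DESeq2 (adjusted p = 0.0299) and without the filter (adjusted p = 0.0485), and was higher by 1.94 with total counts only. Itgb2 did not pass without tumour replicate 1 (-1.09, edgeR adjusted p = 0.0993), without tumour replicate 3 (-0.95, edgeR adjusted p = 0.0866) or by upper-quartile scaling (-1.14, edgeR adjusted p = 0.0732). With protein-coding counts outside the acinar list its log2 difference was -0.025. A list of 13 genes held Itgb2, other integrin chains and integrin ligands. Of these, 10 were tested, 4 rose (Itga4, Itgb1, Vcam1 and Fgb) and 0 fell, while Itgb2, the shared chain, did not pass. Fewer rose with either normal library left out. The smallest p belonged to Vcam1, an endothelial and stromal ligand of leukocyte integrins, which rose by 2.68 (SE 0.46, edgeR adjusted p = 0.00258). Itga4, the alpha chain that binds it, rose by 3.35 (SE 0.69, edgeR adjusted p = 0.00557).

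The C1q genes were the most abundant of the markers. By TPM, which corrects for gene length, the order was C1qa, C1qb and C1qc in each of the 5 libraries. C1qa stood at 7.55 and 4.07 TPM in normal pancreas and at 31.6, 24.2 and 20.3 TPM in the tumours. Csf1r and Cd68 took the 2 places after the C1q genes, with Csf1r ahead in all libraries but normal pancreas replicate 1, where Cd68 led. Itgax was last in both normal libraries and ranked 9, 9 and 8 in the tumours. TPM in a tumour library is lowered by its misc_RNA and in a normal library by its acinar RNA, so TPM is read here within a library. Together the 3 C1q genes took 51.1% to 57.9% of the counts of the 10 markers in each library.

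C1qa departed from its partners in the tumours. Its levels were 21.6 and 12.1 CPM in the normal libraries and 30.2, 24.6 and 24.9 CPM in the tumours, all above both normal libraries. C1qb was at 17.9 and 10.6 CPM in the normal libraries and at 11.9, 15.9 and 10.2 CPM in the tumours, with overlap. C1qc, at 16.6 and 9.94 CPM in the normal libraries and 11.3, 14.9 and 11.01 CPM in the tumours, followed C1qb. The 3 subunits are needed together for the C1q molecule.

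None of the 3 passed in the comparison of tissues. C1qa missed the threshold (log2 0.66, SE 0.26, edgeR adjusted p = 0.0618) and passed by DESeq2 (0.71, adjusted p = 0.0335), by upper-quartile scaling, without the filter, with tumours 1 and 2 summed (0.65, adjusted p = 0.0488) and without normal pancreas replicate 1 (1.14, adjusted p = 0.0175). It also passed with total counts, with protein-coding counts and by limma with either pseudocount. C1qa did not pass without tumour replicate 1 (0.56, edgeR adjusted p = 0.106), replicate 2 (0.72, edgeR adjusted p = 0.0603) or replicate 3 (0.73, edgeR adjusted p = 0.0815). Without normal pancreas replicate 2 its log2 difference was 0.31. C1qb had a log2 difference of -0.16 (SE 0.28, edgeR adjusted p = 0.626). C1qc had -0.10 (SE 0.26, edgeR adjusted p = 0.756). Groups did not overlap in CPM for 3 of the 10 markers, Itgax, C1qa and Cd14, beside 81.0% of all genes tested.

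Counted against each other within a library, C1qa and C1qb had a ratio of 1.21 and 1.14 in normal pancreas and of 2.53, 1.55 and 2.44 in the tumours. The ratio of C1qa to C1qc was 1.30 and 1.21 in normal pancreas and 2.68, 1.65 and 2.26 in the tumours. That of C1qb to C1qc was 1.08 and 1.07 in normal pancreas and 1.06, 1.07 and 0.92 in the tumours. Both ratios with C1qa were thus higher in every tumour than in either normal library, by 0.86 and 0.78 on the log2 scale, and tumour 2 was nearest to normal pancreas. The interval of the C1qa to C1qb ratio in tumour 2, from 1.38 to 1.73, overlapped those of the normal libraries, while the intervals of tumours 1 and 3 began above 2. How RSEM divided reads between these genes cannot be checked from the deposited values.

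**Figure D3:**
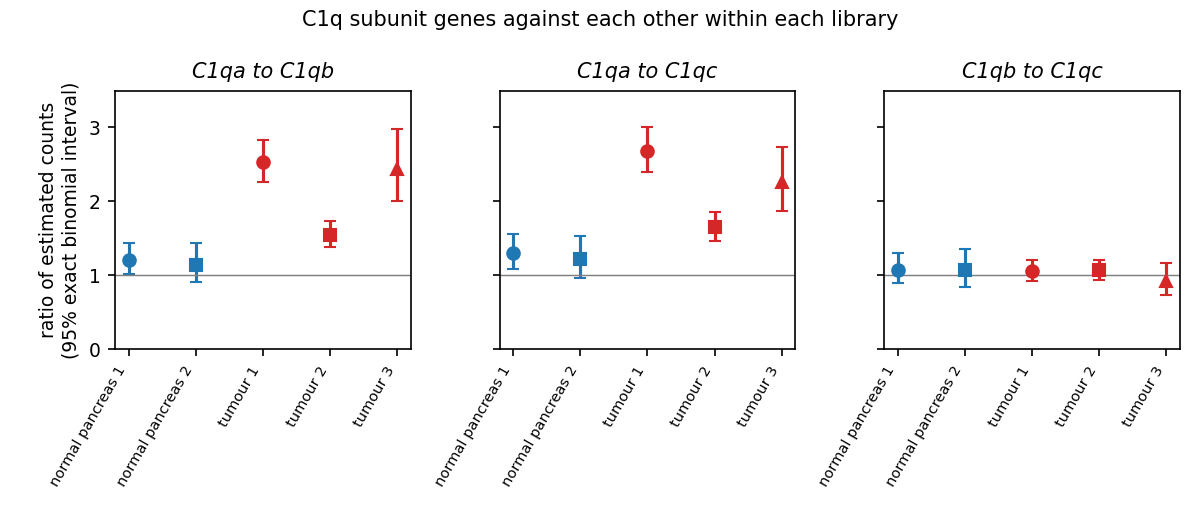
Ratio of estimated counts of the C1q genes in each library, with 95% exact binomial intervals that cover counting error only and a grey line at a ratio of 1. C1qa to C1qb and C1qa to C1qc are higher in the 3 tumours (red) than in the 2 normal libraries (blue), and C1qb to C1qc runs from 0.92 to 1.08.

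Other genes of complement moved in both directions. C1ra, which encodes a protease bound by C1q, was at 18.3 and 12.2 CPM in the normal libraries and at 7.23, 9.14 and 5.96 CPM in the tumours. It fell by 1.02 (SE 0.25, edgeR adjusted p = 0.0113), but not without normal pancreas replicate 1 (-0.70, adjusted p = 0.108), and with total counts only it was higher by 2.17. C1s1, for the protease partner of C1r, missed the threshold (log2 -0.19, SE 0.17, edgeR adjusted p = 0.356). Cd93, first described as a C1q receptor and abundant on endothelium, rose by 2.36 (SE 0.17, edgeR adjusted p = 8.32e-05), and Lrp1, a scavenger receptor, by 2.56 (SE 0.22, edgeR adjusted p = 0.000153). Of 18 complement genes, 6 rose and 5 fell by TMM, and 17 rose and 0 fell with total counts only. The 5 lower calls became 0 without normal pancreas replicate 1 and 3 without replicate 2.

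Libraries of the same tissue differed in the markers. In 9 of 10, normal pancreas replicate 1 was above replicate 2, beside 45.7% of all genes tested and 16 of the 16 leukocyte genes, by 1.33-fold for Csf1r to 3.64-fold for Itgam among those 9, and Cd14 was the exception. In 9 of 10, tumour 3 was the lowest tumour, beside 32.1% of all genes and 12 of the 16 leukocyte genes, and for C1qa tumour 2 was. Tumour 2 was the highest tumour for 7 of the 10, beside 35.9% of all genes and 16 of the 16 leukocyte genes. Among the tumours the highest and lowest library differed from 1.15-fold for Itgam to 2.26-fold for Cd14. The summed level of the 10 markers was 102.9 and 60.7 CPM in the normal libraries and 99.0, 108.5 and 79.5 CPM in the tumours, with the tumours inside or close to the normal range.

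The genes with a profile over the 5 libraries most like the mean of the markers were Med6, Ifi211, Rnaseh1, Fgf11 and Nnmt. The root mean square distance of centred log2(CPM + 0.5) values ran from 0.042 for Med6 to 0.062 for Nnmt. Med6, for example, was at 3.71 and 2.06 CPM in the normal libraries and at 3.43, 3.78 and 2.84 CPM in the tumours.

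Ptprc, which encodes the leukocyte antigen CD45, ranked the libraries within each tissue as most markers did, but differed more widely among the tumours. It was at 4.08 and 1.77 CPM in the normal libraries and at 8.05, 39.0 and 6.30 CPM in the tumours, so tumour 2 stood far above the others. Ptprc rose by 2.62 (SE 0.94, edgeR adjusted p = 0.045), a call lost without normal pancreas replicate 1 (3.34, adjusted p = 0.108) or replicate 2 (2.15, adjusted p = 0.215). Of the 16 leukocyte genes, 1 rose, Ptprc, and 2 fell, Ptpn6 and Lcp1, beside 16 of 16 higher with total counts only. The markers of T and NK cells summed to 5.29 and 1.84 CPM in the normal libraries and to 2.92, 22.7 and 2.08 CPM in the tumours. Those of B and plasma cells summed to 13.6 and 3.61 CPM in the normal libraries and to 16.2, 102.8 and 14.4 CPM in the tumours. Jchain alone gave 3.33 and 1.1 CPM of the normal sums and 13.3, 70.0 and 12.4 CPM of the tumour sums. Tumour 2 was thus the library with most lymphocyte RNA, while its markers summed to 108.5 CPM, close to tumour 1.

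Markers of other cells that carry Itgam or Itgax were also counted. Neutrophil markers summed to 3.78 and 2.58 CPM in the normal libraries and to 6.49, 4.49 and 2.08 CPM in the tumours, with overlap. Ly6g and Elane were at 0 counts in every library, and of 5 neutrophil genes tested 2 rose, S100a8 and S100a9, each from 1 count in either normal library, and 0 rose when either normal library was left out. Dendritic cell markers summed to 15.6 and 17.7 CPM in the normal libraries and to 5.37, 25.5 and 6.99 CPM in the tumours. Zbtb46, a transcription factor gene of dendritic cells and of endothelium, gave 12.0 and 15.8 CPM of the normal sums, and Cd83 gave 9.85 CPM of that of tumour 2. Ccr7, a gene of migrating dendritic cells and of lymphocytes, had 243 counts in tumour 2 and at most 4 elsewhere, and Xcr1 and Clec9a had at most 6 counts in any library. As TMM-scaled CPM, Itgax differed by 1.20-fold between the highest and lowest tumour. The part of these cells in the Itgax values was not tested.

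**Figure D4:**
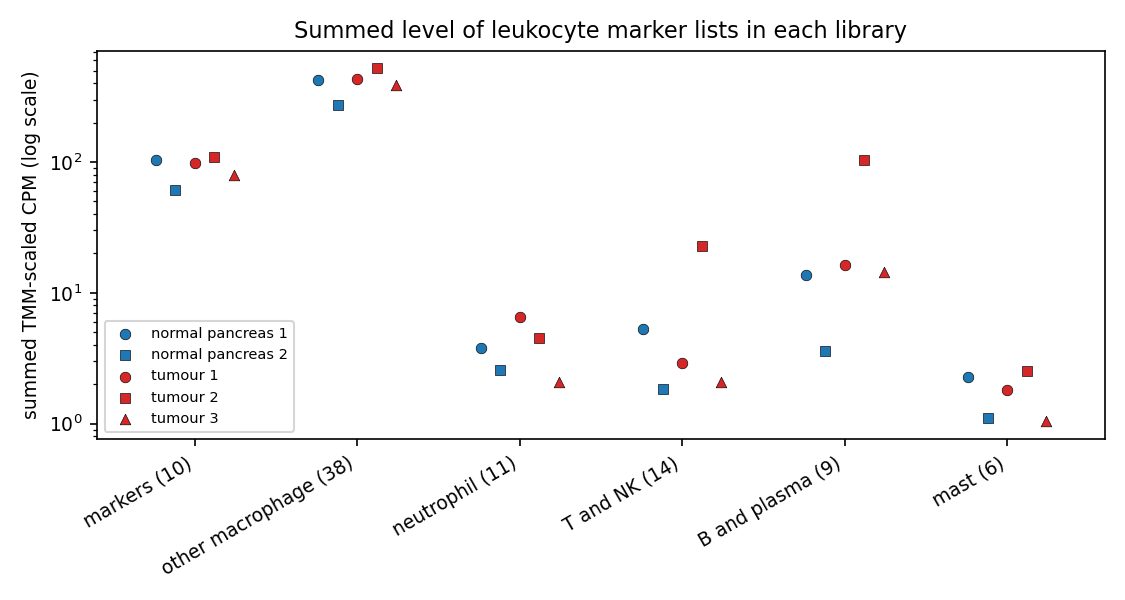
Summed TMM-scaled CPM of marker lists of leukocyte classes in each library, on a log axis, with the number of genes in each list in brackets. Tumour 2 (red square) stands above the other libraries for T and NK cells (22.7 CPM) and for B and plasma cells (102.8 CPM). Of the latter sum, Jchain alone gives 70.0 CPM. The sums of the 10 markers lie between 60.7 and 108.5 CPM.

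The markers were also set beside a wider list of macrophage genes. Of 38 such genes, 37 were tested, and 12 rose, 2 fell and 23 did not pass by TMM, with a median log2 of 0.76. The 37.8% that passed stand beside 67.0% of all genes (39.2% higher, 27.8% lower). With total counts only, 34 rose and 0 fell, beside 93.3% of all genes higher. With protein-coding counts outside the acinar list 26 rose and 0 fell, beside 68.1% of all genes higher. Without normal pancreas replicate 2 the counts were 6 and 2, and without replicate 1 they were 10 and 0. The whole list summed to 420.7 and 274.6 CPM in the normal libraries and to 429.0, 520.4 and 386.8 CPM in the tumours.

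Among the genes that rose, Sirpa, an inhibitory receptor of myeloid cells that neurons also carry, had the smallest p (log2 2.97, SE 0.25, edgeR adjusted p = 0.000144). Clec4n, which encodes the lectin Dectin-2 of monocytes and macrophages, had 0 counts in both normal libraries and 82, 94 and 20 in the tumours. It was at least 20.8-fold higher against a floor of 3 counts for the group as a whole, and at least 10.2-fold higher with normal pancreas replicate 2 left out. Clec4n and Itgax thus shared a pattern of next to no counts in normal pancreas.

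Further genes of the list were picked after their values were seen. Mpeg1, which encodes the pore protein perforin-2 of phagocytes, rose by 1.65 (SE 0.35, edgeR adjusted p = 0.006). Ms4a7, a gene of macrophages, rose by 2.21 (SE 0.44, edgeR adjusted p = 0.0049), and Cx3cr1, the receptor for fractalkine, by 1.67 (SE 0.36, edgeR adjusted p = 0.00657). Its ligand gene Cx3cl1, also a product of neurons, rose by 3.35 (SE 0.38, edgeR adjusted p = 0.000489). The 2 that fell were Cd209f and Folr2. Cd209f fell by 2.33 (SE 0.57, edgeR adjusted p = 0.011) and Folr2 by 1.66 (SE 0.55, edgeR adjusted p = 0.0341), though both were higher with total counts only. The Cd209f call was lost without normal pancreas replicate 1 (-1.45, adjusted p = 0.124). The Folr2 call was lost without that library (-0.93, adjusted p = 0.301), without tumour replicate 1 (adjusted p = 0.0526) and without tumour replicate 3 (adjusted p = 0.0739). Tyrobp, the adaptor of many myeloid receptors, and Lyz2, lysozyme, missed the threshold (log2 0.56, SE 0.41, edgeR adjusted p = 0.267, and log2 -0.12, SE 0.42, edgeR adjusted p = 0.808).

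Set against Csf1r in the same library, these genes are free of the library scaling, although any Hmgxb3 reads among the Csf1r counts enter every value. Per 100 Csf1r counts, Itgax had 0.985 and 0.637 in normal pancreas and 23.9, 17.1 and 23.2 in the tumours. Mrc1 had 65.5 and 43.9 in normal pancreas and 114.9, 89.2 and 73.8 in the tumours. Cd14 had 17.7 and 25.5 in normal pancreas and 11.6, 7.82 and 5.95 in the tumours. C1qb had 116.7 and 91.7 in normal pancreas and 88.0, 85.5 and 87.5 in the tumours. Of the 9 other markers, Itgax and Mrc1 were thus higher and Cd14 and C1qb lower without overlap, 2 each, beside 39.9% of all genes tested as higher and 31.5% as lower. Cd68, Adgre1, Itgam, C1qa and C1qc overlapped. Of the 38 other macrophage genes, 22 were higher and 4 lower without overlap. Mpeg1, for example, had 67.0 and 43.3 per 100 Csf1r counts in normal pancreas and 153.3, 162.7 and 176.8 in the tumours, and Folr2 had 23.6 and 13.4 in normal pancreas and 6.47, 5.82 and 3.57 in the tumours. This measure was chosen after the values were seen, and no test was run on it.

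**Figure D5:**
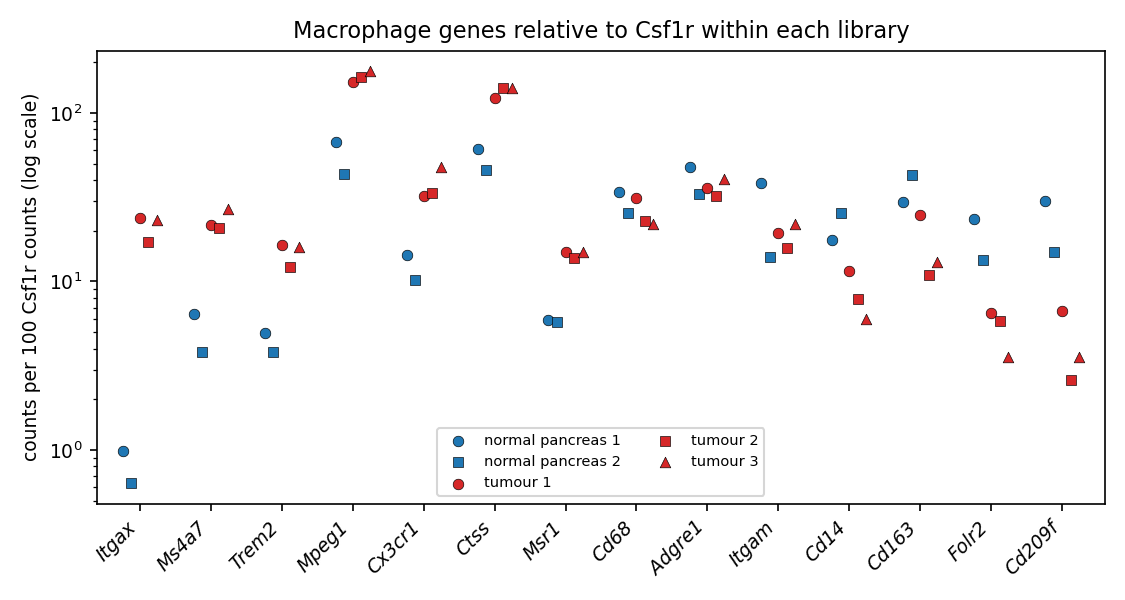
Counts of 14 macrophage genes per 100 Csf1r counts of the same library, on a log axis, with 1 point per library. Itgax runs from 0.637 to 0.985 in normal pancreas (blue) and from 17.1 to 23.9 in tumour (red), Cd68, Adgre1 and Itgam overlap, and Folr2 and Cd209f are lower in every tumour.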

How the data were processed

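RNA of 3 tumours and 2 normal pancreases was sequenced, and the submitters' processing notes name Trim Galore 0.60, STAR 2.7, RSEM 1.31 and the builds mm10 and GRCm38. Settings and annotation were not given in the sources used here. Per gene, the authors deposited expected counts (estimated counts per gene, which need not be whole) and TPM values. The effective length in bases, another deposited column, was used only to describe the genes. Deposited FPKM values were not used, and 92 spike-in rows, all at 0 counts, were left out.

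Expected counts were rounded and tested with edgeR 4.0.16 (R 4.3.3) by glmQLFit and glmQLFTest with TMM scaling, filterByExpr and Benjamini-Hochberg adjustment over 16810 genes at 0.05. Each SE is the size of the log2 fold change over the square root of its F statistic. All 10 markers passed the filter on low counts, Itgax only through its tumour counts. Alternatives were other scalings (total counts, upper quartile, protein-coding counts outside the acinar list), DESeq2 1.42.0, no filter, limma 3.58.1 on log2(TPM + 1) and log2(TPM + 0.1), leaving out each library, and summing tumours 1 and 2. The leukocyte scaling used the median of ratios over 16 genes, with Ptprc alone or the summed counts of the list as alternatives. The libraries carry no stated molecular identifiers, so intervals and floors describe counting error alone. The scripts were tested on simulated data.

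The members and the 18 gene lists were chosen with earlier results of these data known. Named genes are the 10 markers, a set of genes named whatever their values, up to 3 of each list with the smallest p, and 5 genes with the nearest profile; others are given as chosen after their values were seen. Some genes that this rule names are not reported here. Coordinates are on GRCm38 from GENCODE M21, whose identifiers matched 55180 of the 55573 genes.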

Additional observations from a re-analysis of the deposited data

How the results depend on the processing

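Of the 10 markers, Itgax passed as higher in the 13 alternatives of the whole-library fit but not in 4 of those on the leukocyte scale, all of them resting on at most 3 normal counts. These alternatives reuse the same libraries, and wherever the filter was used Itgax could pass only as higher. Its whole-library log2 values ran from 0.72 (limma on log2(TPM + 1), where the pseudocount shrinks low values) to 7.75 (total counts only). The other calls and most directions depended on the scaling. Where a value changed with a setting, the cause was not tested unless the setting itself shows it. No paired analysis was possible because the titles give the groups no shared replicate numbers.

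With total counts only, 10 markers were higher and 0 lower, and 15681 genes were higher and 398 lower against 6587 and 4669 by TMM. The signs turned positive for Adgre1 (3.08), C1qb (3.02), C1qc (3.09), Cd14 (2.04), Cd68 (3.05), Itgam (2.704), C1ra (2.17), C1s1 (3.004), Cd209f (0.84), Csf1 (2.48), Folr2 (1.53), Itgb2 (1.94), Lamp1 (1.53), Lcp1 (2.08), Ly96 (2.15), Lyz2 (3.07), Ptpn6 (1.96), Tirap (1.28), Myd88 (1.93), Tlr2 (2.03), Irak4 (2.11), Ticam1 (2.24) and Zbtb46 (0.58). With protein-coding counts outside the acinar list, 8 markers were higher and 0 lower, with 11445 and 1543 over all genes, and the signs turned for Adgre1 (1.12), C1qb (1.06), C1qc (1.13), Cd14 (0.078), Cd68 (1.09), Itgam (0.74), C1ra (0.20), C1s1 (1.05), Csf1 (0.54), Lcp1 (0.12), Ly96 (0.20), Lyz2 (1.10), Ptpn6 (0.0034), Tlr2 (0.073), Irak4 (0.17) and Ticam1 (0.29). With limma on TPM (pseudocounts 1 and 0.1), 8 markers were higher and 0 lower, with 10665 and 11558 genes higher and 1173 and 1192 lower. The signs turned for Adgre1 (0.66 and 1.26), C1qb (1.14 and 1.29), C1qc (1.18 and 1.36), Cd14 (0.15 and 0.24), Cd68 (0.93 and 1.36), Itgam (0.29 and 0.94), C1ra (0.26 and 0.38), C1s1 (0.996 and 1.20), Csf1 (0.22 and 0.43), Itgb2 (0.059 and 0.024), Lcp1 (0.32 and 0.37), Ly96 (0.22 and 0.36), Lyz2 (1.33 and 1.40), Ptpn6 (0.48 and 0.65), Myd88 (0.11 and 0.17), Tlr2 (0.10 and 0.21), Irak4 (0.30 and 0.71) and Ticam1 (0.27 and 0.44). By upper-quartile scaling, DESeq2 and no filter, 2 markers were higher and 0 lower, and with tumours 1 and 2 summed 2 were higher. Upper-quartile scaling turned Adgre1 (0.025), C1qc (0.032) and Lyz2 (0.0025).

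With each library left out in turn, 1 to 2 markers were higher and 0 to 1 lower. A single library left out turned the sign of Cd68 (-0.48 to 0.33), Csf1r (-0.082 to 0.34), Adgre1 (-0.48 to 0.44), Itgam (-1.10 to 0.74), C1qb (-0.48 to 0.26), C1qc (-0.40 to 0.32) and Lyz2 (-0.61 to 0.65), given as the lowest and highest value. On the leukocyte scale, 0 to 1 markers were higher with a library left out and 0 with Ptprc alone as reference, which turned C1qa (-1.13) and Mrc1 (-1.11). The sum of leukocyte counts turned Adgre1 (0.23), C1qb (0.10), C1qc (0.20), Cd68 (0.15) and Csf1r (0.35). On that scale, a library left out turned Cd68 (-0.63 to 0.20), Csf1r (-0.38 to 0.32), Adgre1 (-0.51 to 0.29), Itgam (-0.86 to 0.12), C1qb (-0.56 to 0.11) and C1qc (-0.54 to 0.23), most of them without tumour 2. Depth limits Itgax, with 3 counts over both normal libraries, and Cd14, with 10 in tumour 3.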
